A study of Zanthoxylum armatum with 24 samples.

Results

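In the spice tree *Zanthoxylum armatum* male, female, monoecious and occasional bisexual flowering occur, and the study sampled male trees and female trees. The comparison set inflorescence buds at male primordia initiation (M2) against buds with undifferentiated male primordia (M1). Its members were chosen by the stage label of each library and numbered 5, namely 2 M2 and 3 M1 libraries of the 23 libraries used, and the expression of all 60592 listed genes was followed. The third M2 library was left out because its table was cut short and headed as M3 replicate 1, and all but 1 of its genes carried exactly the value of that library. All buds were untreated and were taken from cultivated trees whose sex was checked at flowering, and each library pooled the buds of several plants of one sex. The female stages with the same numbers, female primordia initiation (F2, 3 libraries) and undifferentiated female primordia (F1, 3 libraries), served to show where the male step stood apart. M2 buds were picked later in the season than M1 buds, so the stage and the date of sampling cannot be told apart.

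In flowering plants the identity of floral organs is set by combinations of transcription factors, mostly of the MADS-box family, known as the ABCDE model. A class genes mark the floral meristem and the outer whorls, and E class genes encode partners of the other classes in all whorls. B class genes are needed for stamens, C class genes for stamens and carpels, and D class genes for ovules. Cytokinin, auxin and the sugars reaching the bud act upstream of and beside these genes. In dioecious species the organs of one sex are not formed or stop early, and the stage at which the sexes part differs between lineages. The gene names used here are those of the closest *Arabidopsis* gene in the study's annotation, and the roles given with them are known from *Arabidopsis*.

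Expression was given as FPKM, sequenced fragments scaled by transcript length and by the mapped fragments of the library. The low values of weak genes placed the depth of the M2 libraries at 1.016 and 1.004 times, and that of M1 replicates 2 and 3 at 0.967 and 1.03 times, the depth of M1 replicate 1. The study's totals of mapped reads instead placed both M2 libraries below M1 replicate 1. The number of reads of each gene was not recoverable, so no counting interval is given. Between 33958 and 34078 genes reached 1 FPKM in the 5 libraries. On log2(FPKM + 1) the M2 libraries correlated with each other at 0.985 and the M1 libraries at 0.984 to 0.985, against 0.952 to 0.953 for pairs of 1 M2 and 1 M1 library, as a description across 38734 genes. P-values measure the spread between pools of buds. In whole buds, fewer cells of a type and less RNA per cell cannot be told apart.

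Testing covered 38734 genes that reached 1 FPKM in 3 or more libraries. Genes are named called where the log2 fold change was 1 or more in size and the limma adjusted p did not exceed 0.05, and by this measure 792 were higher and 1115 lower in M2 than in M1. They made up 2.04% and 2.88% of the genes tested, 4.92% in all, and 29.8% passed the adjusted p at any fold. The 792 genes called higher had a median log2 fold change of 1.30 and a median level of 10.6 FPKM in M2 against 3.02 FPKM in M1. The 1115 genes called lower had a median of -1.32, with 3.77 FPKM in M2 against 13.6 FPKM in M1. Changes over 3 on the log2 scale were seen for 24 genes called higher and 47 genes called lower. Both M2 libraries lay outside the range of the 3 M1 libraries, on the side of the call, for 790 of the 792 and 1112 of the 1115 genes, but 55.5% of all genes tested did not overlap either (28.0% above and 27.4% below M1), so a lack of overlap alone says little here.

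**Figure D1:**
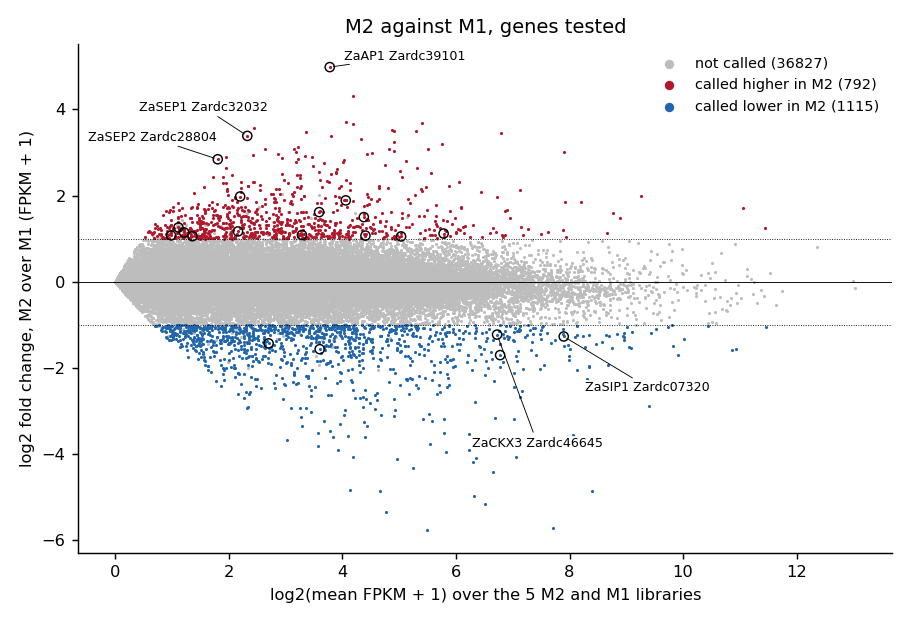
Each point is a gene tested, with the log2 of the mean FPKM + 1 over the 5 M2 and M1 libraries on the x axis and the log2 fold change of M2 over M1 on the y axis. Red points are the 792 genes called higher in M2, blue points the 1115 called lower, grey points the rest, black circles the 21 called genes of the lists described in the text, and dotted lines the fold limit of 1.

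The calls were also counted by the level of the gene. Among the 1547 genes with a mean of 100 FPKM or more over the 5 libraries, 106 were called lower and 26 higher, which are 6.85% and 1.68% of them. Among the 11332 genes between 1 and 5 FPKM the counts were 369 lower and 306 higher. Switching on or off outright was rare. Only 7 genes were at 1 FPKM or more in both M2 libraries while listed at 0 in every M1 library, with a median of 1.97 FPKM in M2, and 11 were listed at 0 in both M2 libraries while at 1 FPKM or more in every M1 library, with a median of 4.01 FPKM in M1. A listed 0 means only that no value above 0 was given.

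The largest calls without overlap between the stages were a MADS-box gene and 3 genes with no name in the sources used here. Zardc39101(*ZaAP1*) showed the largest increase and is described with the floral genes. Zardc01499 was at 39.4 and 42.8 FPKM in M2, against 1.15, 0.871 and 1.34 FPKM in M1 (log2 fold change 4.32, standard error 0.11, limma adjusted p = 4.26e-16). Zardc06883 was at 0.532 and 0.215 FPKM in M2, against 72.7, 70.4 and 76.1 FPKM in M1 (log2 fold change -5.76, standard error 0.17). Zardc07002 was at 4.87 and 6.37 FPKM in M2, against 334, 342 and 356 FPKM in M1 (log2 fold change -5.71, standard error 0.12). The loss of Zardc06883 did not last, since it stood at 73.1, 0.374, 0.156 and 81.3 FPKM on average over M1, M2, M3 and M4. In the female buds Zardc07002 had 11.3 FPKM in F2 against 298 FPKM in F1 on average, and Zardc06883 had 14.9 FPKM in F2 against 37.4 FPKM in F1.

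A set of 130 genes in 16 lists was read from the study's annotation for hormone signalling, carbohydrate metabolism and floral identity. The study had picked these genes on these samples, so their changes are no independent evidence. Some hormone genes were picked as higher in M3 than in M1, with the same M1 libraries. Of the 124 that were tested, 16 were called higher and 5 lower in M2, 16.9% against 4.92% of all genes tested. The other 6 stayed under the filter on low values, with no value above 1.88 FPKM in any library. The adjusted p alone was passed by 53 of the 124, or 42.7%, against 29.8% of all genes. Their median log2 fold change was 0.11, beside 0.01 over all genes tested. By list, A and E class floral genes gave 5 of 7 members, ABA signalling 3 of 7, auxin 3 of 18 and starch metabolism 2 of 8. B, C and D class genes, trehalose metabolism, cytokinin receptors and the salicylic acid, jasmonic acid and ethylene list gave none. Most B, C and D class genes passed the filter through other groups and were too weak in M2 and M1 to be called.

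**Figure D2:**
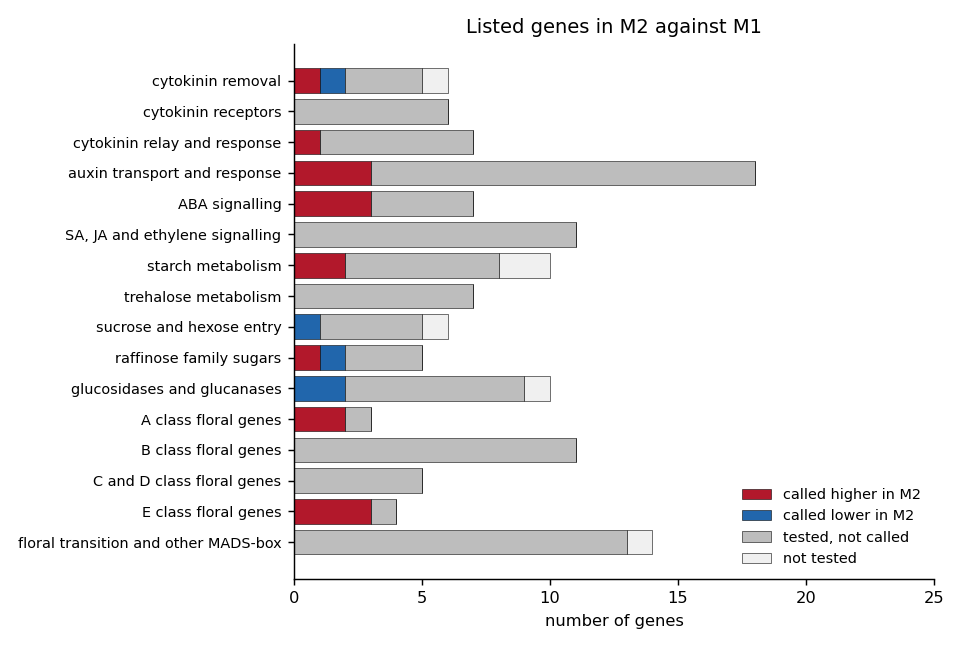
The bars count the members of each of the 16 lists, split into those called higher in M2 (red), called lower in M2 (blue), tested and not called (grey) and not tested for low values (pale). Red blocks mark 2 of 3 A class and 3 of 4 E class genes. The bars of the 11 B class and 5 C and D class genes are grey throughout, but are no contrast to them. All of these except Zardc17043(*ZaPI*) and *ZaAG* were too weak in M2 and M1 for a change to reach the fold limit.

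Most A and E class genes rose in M2, 5 of the 7 being called, against 4.92% of all genes tested. *AP1* marks the floral meristem and the sepals, and the *SEP* genes encode the E class partners that all floral MADS-box complexes need. Zardc39101(*ZaAP1*) was at 31.0 and 32.4 FPKM in M2, against 0.101, 0 and 0 FPKM in M1. Its log2 fold change was 4.98 (standard error 0.13, limma adjusted p = 5.37e-16), the largest increase of all genes tested, and the size rested on the pseudocount, being 7.98 with 0.1 in place of 1. Over M1, M2, M3 and M4 it averaged 0.0336, 31.7, 23.8 and 53.7 FPKM, so that more than its M3 level was already reached at M2. A second copy, Zardc39213(*ZaAP1*), was weak, at 2.04 and 2.58 FPKM in M2 against 0.518, 0.536 and 0.126 FPKM in M1. It was called (log2 fold change 1.26, standard error 0.31, limma adjusted p = 0.00427), though the call was lost without M2 replicate 2 (adjusted p = 0.0525). Zardc30916(*ZaAP2*), an A class gene outside the MADS-box family, ran the other way, at 34.0 and 37.7 FPKM in M2 against 66.8, 63.5 and 61.1 FPKM in M1. Its log2 fold change of -0.82 (limma adjusted p = 6.65e-09) fell short of the fold limit.

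Among the E class genes Zardc32032(*ZaSEP1*) was at 12.04 and 7.90 FPKM in M2, against 0.0955, 0 and 0 FPKM in M1 (log2 fold change 3.39, standard error 0.20, limma adjusted p = 8.08e-11). Zardc10299(*ZaSEP2*) was at 20.5 and 17.9 FPKM in M2, against 5.07, 5.84 and 5.87 FPKM in M1 (log2 fold change 1.61, standard error 0.15, limma adjusted p = 6.45e-08). These 2 differed in their later course. *ZaSEP1* averaged 19.3 and 57.1 FPKM in M3 and M4, while Zardc10299 held 19.1 and 20.4 FPKM there. The other *SEP2* copy, Zardc28804, was at 7.06 and 5.39 FPKM in M2 and listed at 0 in all 3 M1 libraries, so no fold is given (limma adjusted p = 2.33e-12 on log2(FPKM + 1)). It went on to 16.6 ± 0.629 FPKM in M3 and 89.0 ± 0.382 FPKM in M4 (SD, n = 3 each). *SEP3* gave the contrast, since Zardc28170(*ZaSEP3*) was listed at 0 in both M2 and all 3 M1 libraries and reached 4.82 FPKM on average in M4. The fold size of *ZaSEP1* also rested on the pseudocount, being 6.30 with 0.1. Reads of near-identical copies may have been split between them in the counting, which was not tested.

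The study designed quantitative PCR primers for Zardc28804 and Zardc28170, and these are shown because they define which of the copies that switched on at M2, or did not, was followed. They are written 5′ to 3′ and were not placed on a genome here, so whether they tell near-identical copies apart is not known.
Zardc28804(*ZaSEP2*) forward: atcttcttggagaggatttggga
Zardc28804(*ZaSEP2*) reverse: agaataaactgcgtcttggtgga
Zardc28170(*ZaSEP3*) forward: cgttatttgcgatgctgaggt
Zardc28170(*ZaSEP3*) reverse: acacatttggttctggtgctcc

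**Figure D3:**
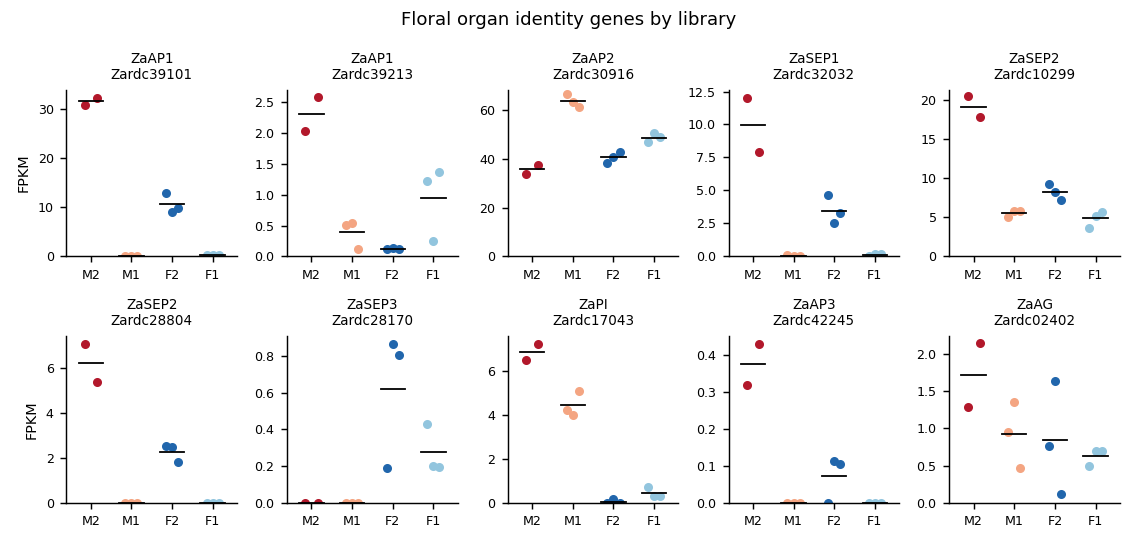
FPKM of 10 floral organ identity genes by library in M2, M1, F2 and F1, with 1 point per library, a black line at the group mean and a scale of its own for each gene. Zardc39101(*ZaAP1*), *ZaSEP1* and Zardc28804(*ZaSEP2*) stand high in M2, lower in F2 and at or near 0 in M1 and F1, while *ZaPI* is present in both male stages and near 0 in the female stages.

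Except for Zardc17043(*ZaPI*), the organ identity genes of stamens and carpels were weak or listed at 0. None of the 11 B class members was called. Zardc17043(*ZaPI*), a B class gene, was at 6.49 and 7.24 FPKM in M2, against 4.22, 4.01 and 5.09 FPKM in M1, which was below the fold limit at 0.53 on the log2 scale (limma adjusted p = 0.0342). It already had this level in undifferentiated male buds and averaged 27.5 and 122 FPKM in M3 and M4. In the female buds of the same stages *ZaPI* was at 0, 0.178 and 0 FPKM in F2 and 0.706, 0.331 and 0.326 FPKM in F1. The other 10 B class members had no value above 0.429 FPKM in M2 or 0.0603 FPKM in M1. At these levels no call was possible for them with a pseudocount of 1. Of the 8 *AP3* copies among them, 4 were listed at 0 in all 5 libraries, and in M4 the 10 averaged between 1.33 and 8.97 FPKM each. Zardc42245(*ZaAP3*) was at 0.318 and 0.429 FPKM in M2 and listed at 0 in all M1 libraries (limma adjusted p = 0.0254). With a pseudocount of 0.1 it was called, at a fitted value of 2.23 that has no meaning as a ratio.

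Of the 5 C and D class genes, none passed the adjusted p, and their smallest was 0.128. Zardc02402(*ZaAG*), the C class gene, was at 1.29 and 2.14 FPKM in M2, against 0.954, 1.36 and 0.464 FPKM in M1, with overlapping ranges, and averaged 13.98 and 53.8 FPKM in M3 and M4. Both *STK* copies, the D class genes, were listed at 0 in M2 and reached at most 0.0841 FPKM in M1. Among the 13 tested genes of floral transition and other MADS-box genes, 1 passed the adjusted p (0.00615 by limma). This was Zardc33025(*ZaFYF*), a regulator that delays senescence and abscission of flowers in *Arabidopsis*. It was at 36.8 and 38.0 FPKM in M2 against 26.6, 29.1 and 29.4 FPKM in M1. Over all genes tested 29.8% passed the adjusted p, so counts among 5 and 13 genes say little. Zardc26470(*ZaAGL29*) was at 6.62 and 5.89 FPKM in M2 against 6.25, 5.99 and 4.84 FPKM in M1, and the remaining 11 ranged in log2 fold change from -0.55 to 0.14.

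Cytokinin genes moved in opposite directions. Cytokinin oxidase/dehydrogenases (CKX) degrade cytokinin. Zardc46645(*ZaCKX3*) was at 56.2 and 58.8 FPKM in M2, against 142, 131 and 136 FPKM in M1, that is 0.422 times the M1 mean. Its log2 fold change was -1.23 (standard error 0.09, limma adjusted p = 9.75e-10). Zardc24534(*ZaCKX5*) was at 22.9 and 24.1 FPKM in M2 against 43.8, 48.9 and 48.8 FPKM in M1, just under the fold limit at -0.97 (limma adjusted p = 3.15e-09). The weak *ZaCKX6*, one of the IDs added by the study to the published gene set, was higher, at 2.99 and 2.42 FPKM in M2 against 0.425, 0.910 and 1.06 FPKM in M1 (log2 fold change 1.06, standard error 0.18, limma adjusted p = 0.000109). Its value fell under the fold limit without M2 replicate 1 (0.94) or M1 replicate 1 (0.90). Neither *ZaCKX3* nor *ZaCKX5* stayed at its M2 level, since the means over M1, M2, M3 and M4 were 136, 57.5, 96.2 and 17.3 FPKM for *ZaCKX3* and 47.2, 23.5, 93.0 and 35.2 FPKM for *ZaCKX5*. The 2 *UGT85A* genes, whose products can attach glucose to cytokinin, had log2 fold changes of 0.11 and -0.25 and did not pass the test. The primers the study used for the 2 *CKX* genes that were called in opposite directions follow, and were not placed on a genome either.
Zardc46645(*ZaCKX3*) forward: tcagcctctagcgattacgg
Zardc46645(*ZaCKX3*) reverse: tttcaactactactcctccttcagc
*ZaCKX6* forward: atggtgaaatggatcagagtgc
*ZaCKX6* reverse: tggctggcttgtactgggtc

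None of the 6 cytokinin receptors was called, and 3 passed the adjusted p with higher values in M2. Over all genes tested the shares were 4.92% and 29.8%, so counts among 6 genes say little. These histidine kinases bind cytokinin at the membrane and start a phosphorelay. Zardc51803(*ZaAHK3*) was at 20.2 and 19.4 FPKM in M2, against 11.4, 10.1 and 13.6 FPKM in M1 (log2 fold change 0.72, limma adjusted p = 0.000203). Zardc23082(*ZaAHK4*) was at 22.2 and 22.97 FPKM in M2 against 15.6, 15.2 and 13.6 FPKM in M1, and Zardc55048(*ZaAHK4*) at 81.2 and 75.9 FPKM in M2 against 64.7, 63.7 and 63.1 FPKM in M1. The 3 other receptors lay between -0.15 and 0.35 on the log2 scale.

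At the end of the relay stand the response regulators, of which the B type activate target genes and the A type dampen the response. The B type gene Zardc54051(*ZaARR12*) was called. It was at 7.12 and 7.48 FPKM in M2, against 1.27, 1.21 and 0.860 FPKM in M1, a ratio of means of 6.55 (log2 fold change 1.98, standard error 0.14, limma adjusted p = 1.78e-09). Another B type gene, Zardc48440(*ZaARR11*), was at 7.68 and 7.60 FPKM in M2 against 3.35, 3.11 and 3.59 FPKM in M1 and stopped just short of the fold limit, at 0.99 (limma adjusted p = 0.000148). The A type genes went both ways below that limit. Zardc46700(*ZaARR3*) was at 46.2 and 45.9 FPKM in M2 against 27.97, 22.97 and 25.1 FPKM in M1, and Zardc33161(*ZaARR9*) at 57.5 and 66.2 FPKM in M2 against 42.0, 38.6 and 44.8 FPKM in M1. Zardc11274(*ZaARR9*) was instead at 15.8 and 15.2 FPKM in M2 against 26.4, 29.2 and 32.2 FPKM in M1 (log2 fold change -0.87, limma adjusted p = 3.31e-06). The phosphotransfer gene *ZaAHP4* was listed at 0 in all 5 libraries.

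Of the 18 auxin genes 3 were called (16.7%, against 4.92% of all genes tested), all higher in M2, and none lower. Some auxin genes were picked by the study as higher in M3 than in the same M1 libraries, which favours this direction. Small auxin-up RNAs (SAUR) are early auxin targets, and Aux/IAA proteins repress the auxin response factors (ARF). Zardc35827(*ZaSAUR72*) was at 28.6 and 28.4 FPKM in M2, against 8.51, 7.51 and 5.26 FPKM in M1 (log2 fold change 1.89, standard error 0.14, limma adjusted p = 3.15e-09), and it averaged 30.6 and 26.1 FPKM in M3 and M4. The other calls were less firm. Zardc15205(*ZaIAA11*) was at 10.01 and 16.9 FPKM in M2 against 5.08, 5.95 and 5.85 FPKM in M1 (log2 fold change 1.09, standard error 0.32, limma adjusted p = 0.0134), and the value was 0.74 (adjusted p = 0.21) without M2 replicate 2. Zardc44966(*ZaIAA29*) was at 2.02 and 1.71 FPKM in M2 against 0.685, 0.118 and 0.333 FPKM in M1 (log2 fold change 1.07, standard error 0.23, limma adjusted p = 0.0012), with 0.99 without M2 replicate 1 and 0.93 without M1 replicate 2. Below the fold limit, Zardc22092(*ZaIAA12*) was at 6.30 and 6.76 FPKM in M2 against 2.01, 3.95 and 2.88 FPKM in M1. Zardc26868(*ZaARF3*) was at 29.2 and 26.8 FPKM in M2 against 15.8, 16.0 and 15.3 FPKM in M1, Zardc45890(*ZaARF7*) at 13.0 and 11.9 FPKM in M2 against 9.50, 9.66 and 9.002 FPKM in M1, and *ZaSAUR32* at 5.99 and 6.01 FPKM in M2 against 3.74, 2.77 and 3.52 FPKM in M1. The auxin influx carriers *ZaLAX2* and *ZaLAX3* and the 3 *GH3* genes, which tie auxin to amino acids, did not pass the test, with log2 fold changes between -0.19 and 0.31.

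ABA signalling held 3 called genes of 7 (42.9%, against 4.92% of all genes tested), all higher in M2. The study drew ABA genes in part from those higher in M3 than in the same M1 libraries. The share and the direction are therefore no independent result. Clade A protein phosphatases 2C switch the ABA pathway off when no ABA is bound to its receptors. Zardc46850(*ZaAHG1*) was at 32.4 and 33.3 FPKM in M2, against 10.7, 13.1 and 9.36 FPKM in M1 (log2 fold change 1.499, standard error 0.11, limma adjusted p = 1.08e-09). Zardc09485(*ZaAHG3*) was at 44.5 and 48.4 FPKM in M2, against 21.8, 22.2 and 21.7 FPKM in M1 (log2 fold change 1.05, standard error 0.06, limma adjusted p = 7.35e-11), with 0.99 without M2 replicate 2. The other 2 phosphatases passed the adjusted p below the fold limit. Zardc53596(*ZaAIP1*) was at 31.1 and 30.2 FPKM in M2 against 19.4, 17.9 and 20.3 FPKM in M1, and *ZaHAB1* at 40.2 and 36.7 FPKM in M2 against 19.9, 22.4 and 21.02 FPKM in M1. Zardc25044, an unnamed bZIP transcription factor gene, was at 79.1 and 81.5 FPKM in M2, against 35.9, 35.3 and 38.3 FPKM in M1 (log2 fold change 1.12, standard error 0.07, limma adjusted p = 3.11e-10). The ABA receptor genes were weak, and Zardc28302(*ZaPYL4*) was at 0.459 and 0.0930 FPKM in M2 against 1.12, 1.45 and 0.816 FPKM in M1 (log2 fold change -0.74, limma adjusted p = 0.0399). With a pseudocount of 0.5 *ZaPYL4* was called lower, at -1.09 (limma adjusted p = 0.0386). *ZaAHG3* averaged 21.9, 46.5, 73.4 and 59.4 FPKM over M1, M2, M3 and M4.

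No salicylic acid, jasmonic acid or ethylene gene of the 11 tested was called, and 4 passed the adjusted p. Over all genes tested 4.92% were called and 29.8% passed the adjusted p, so these counts are near the general share. Zardc06900(*ZaJAZ1*), a repressor of jasmonate responses, was at 91.4 and 95.7 FPKM in M2, against 147, 146 and 150.1 FPKM in M1 (log2 fold change -0.65, limma adjusted p = 3.06e-08). Zardc02254(*ZaJAS1*), of the same repressor family, was at 38.8 and 32.7 FPKM in M2 against 52.5, 38.4 and 51.1 FPKM in M1, with overlapping ranges. Zardc38825(*ZaTGA8*), a bZIP factor gene placed in this list by its annotation, was at 18.5 and 20.6 FPKM in M2 against 12.6, 12.1 and 12.9 FPKM in M1. The ethylene receptor gene *ZaEIN4* was at 6.59 and 5.62 FPKM in M2 against 2.93, 2.88 and 3.66 FPKM in M1 (log2 fold change 0.78, limma adjusted p = 0.000239).

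Starch genes were higher or not called. ADP-glucose pyrophosphorylase makes the glucose donor of starch synthesis, and its large subunit gene Zardc48948(*ZaAPL3*) was at 30.9 and 28.8 FPKM in M2, against 14.5, 12.02 and 14.7 FPKM in M1 (log2 fold change 1.07, standard error 0.09, limma adjusted p = 1.74e-08), with 0.98 without M1 replicate 2. Zardc33027(*ZaPGMP*), the plastid phosphoglucomutase one step earlier by the study's annotation table, although its text gives this ID a trehalose phosphate synthase name, was at 32.5 and 32.0 FPKM in M2 against 17.0, 17.5 and 19.4 FPKM in M1 (log2 fold change 0.81). The branching enzyme gene Zardc12008(*ZaSBE2.2*) was called at 3.61 and 1.38 FPKM in M2 against 0.943, 0.287 and 0.351 FPKM in M1 (log2 fold change 1.14, standard error 0.41, limma adjusted p = 0.0415). That call was lost without M2 replicate 1 (0.67, adjusted p = 0.398), M1 replicate 2 (adjusted p = 0.108) or M1 replicate 3 (adjusted p = 0.0993). Of the beta-amylases, which break starch down to maltose, Zardc34000(*ZaBAM1*) was at 2.51 and 2.75 FPKM in M2 against 1.13, 1.55 and 1.34 FPKM in M1. The beta-amylase *ZaBAM2* was at 4.26 and 3.92 FPKM in M2 against 3.04, 2.38 and 2.62 FPKM in M1 and was listed at 0 in every F2 and F1 library. The 7 genes listed under trehalose, whose products make and remove the sugar signal trehalose 6-phosphate, stayed between -0.31 and 0.11 on the log2 scale.

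Sugar entry and raffinose genes gave calls in both directions. Vacuolar invertase splits sucrose into hexoses, and Zardc31270(*ZaVI1*) was at 1.57 and 2.95 FPKM in M2, against 8.27, 6.43 and 8.26 FPKM in M1 (log2 fold change -1.43, standard error 0.25, limma adjusted p = 0.000211). Sucrose synthase cleaves sucrose in another way, and Zardc36683(*ZaSUS2*) was at 2.001 and 2.08 FPKM in M2 against 0.755, 0.690 and 0.649 FPKM in M1, a ratio of means of 2.93. With the pseudocount of 1 its log2 fold change was 0.84, and with 0.5 it was called, at 1.09. Zardc07320(*ZaSIP1*), of the raffinose synthase and alpha-galactosidase family, was at 129 and 127 FPKM in M2, against 310.3, 318 and 304 FPKM in M1 (log2 fold change -1.27, standard error 0.05, limma adjusted p = 5.49e-14). It averaged 311, 128, 82.6 and 43.6 FPKM over M1, M2, M3 and M4. Zardc04821(*ZaSTS*), stachyose synthase, was at 5.77 and 5.62 FPKM in M2, against 2.15, 1.96 and 1.85 FPKM in M1 (log2 fold change 1.17, standard error 0.14, limma adjusted p = 1.97e-06). The raffinose synthase gene Zardc23456(*ZaRS5*) was at 12.8 and 12.9 FPKM in M2 against 9.88, 9.45 and 9.81 FPKM in M1.

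Genes for glucosidases and glucanases, which act on cell wall and stored glucans, gave 2 calls, both lower in M2. These were 22.2% of the 9 tested members, against 4.92% of all genes tested. The median log2 fold change of the 9 was -0.51, beside 0.01 over all genes tested. Zardc54087(*ZaBGLU44*), a beta-glucosidase, was at 49.7 and 41.5 FPKM in M2, against 154, 139.5 and 159 FPKM in M1 (log2 fold change -1.71, standard error 0.09, limma adjusted p = 1.46e-11). Zardc01552(*ZaGH9B1*), an endo-glucanase of the cellulase family, was at 5.36 and 3.84 FPKM in M2, against 16.4, 14.3 and 15.7 FPKM in M1 (log2 fold change -1.57, standard error 0.20, limma adjusted p = 3.76e-06). Below the fold limit, Zardc31209(*ZaCEL2*) was at 1.96 and 1.88 FPKM in M2 against 3.83, 4.91 and 4.85 FPKM in M1. The glycoside hydrolase family genes Zardc27757 and Zardc01536 were at 15.8 and 13.5 FPKM and at 5.96 and 6.75 FPKM in M2, against 26.1, 23.8 and 25.1 FPKM and 9.70, 8.74 and 9.95 FPKM in M1. The exception was Zardc21370(*ZaGH9B9*), at 2.43 and 2.56 FPKM in M2 against 0.643, 1.18 and 1.20 FPKM in M1, which was listed at 0 in every F2 and F1 library.

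**Figure D4:**
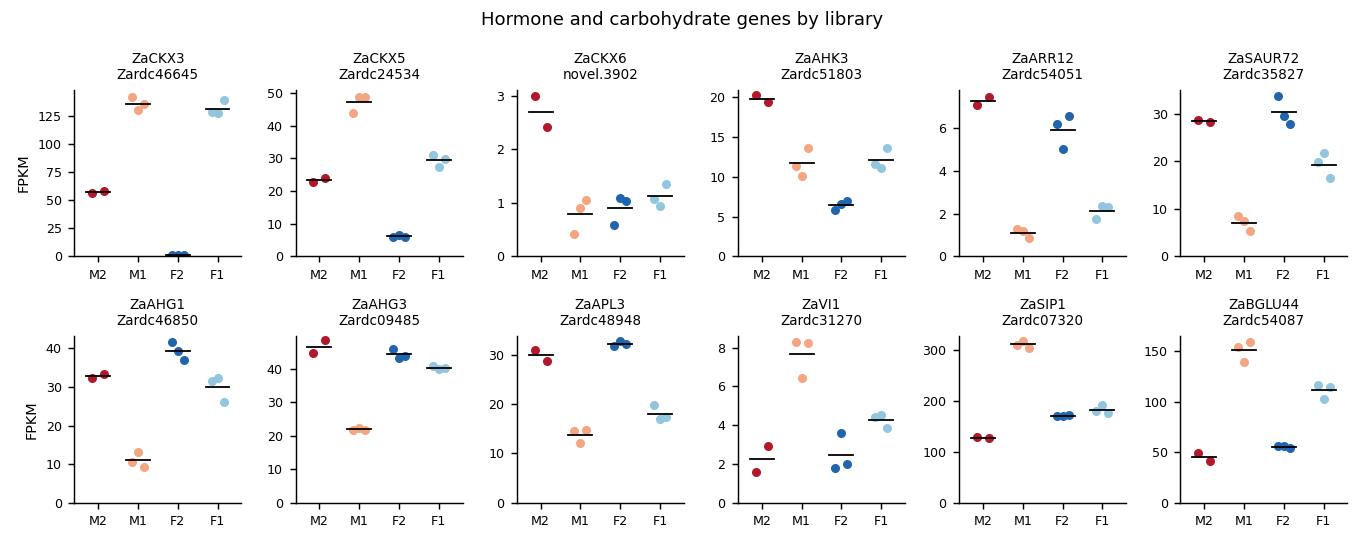
FPKM of 12 hormone and carbohydrate genes by library in M2, M1, F2 and F1, with 1 point per library, a black line at the group mean and a scale of its own for each gene. *ZaCKX3* lies at 56.2 and 58.8 FPKM in M2 and between 1.45 and 1.60 FPKM in F2, while M1 and F1 share one level, and *ZaSIP1* is lower in M2 than in M1 with F2 and F1 close together.

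The female buds passed through the same morphological step, and F2*vs.*F1 shared no library with M2*vs.*M1. In F2*vs.*F1, 410 genes were called higher and 1221 lower, which are 1.06% and 3.15% of the genes tested and 4.21% in all. Genes called the same way in both sexes numbered 732, which are 38.4% of the 1907 called in M2*vs.*M1 and 44.9% of the 1631 called in F2*vs.*F1. Only 23 were called in opposite ways, a count that was 43 with a pseudocount of 0.5 and 60 with 0.1. Of the 1115 called lower in M2, 532 or 47.7% were also called lower in F2, and of the 792 called higher in M2, 200 or 25.3% were also called higher in F2. Called or not, 94.0% of the genes lower in M2 had a lower F2 mean and 80.1% of those higher in M2 a higher F2 mean, with median F2*vs.*F1 log2 fold changes of -0.97 and 0.57. The difference between these shares was not tested.

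The difference between the male and the female step itself was tested as the interaction (M2 - M1) - (F2 - F1). It was called for 1231 genes, 3.18% of those tested, and was positive for 820 (2.12%) and negative for 411 (1.06%). Of the 1152 genes called in M2*vs.*M1 and not in F2*vs.*F1, 367 or 31.9% were called in the interaction. A further 248 passed its adjusted p below the fold limit, among them Zardc09485(*ZaAHG3*) at 0.92 (limma adjusted p = 2.15e-07), and for the remaining 537 a difference between the sexes was not shown. Among the listed genes 16 of 124 were called in the interaction, 12.9%, with 14 positive and 2 negative, and 14 of the 16 lost the call when tested against the fold limit itself, *ZaCKX3* and Zardc39101(*ZaAP1*) keeping it. The farthest was *ZaCKX3*, which had 1.60, 1.45 and 1.57 FPKM in F2 against 129, 128 and 139 FPKM in F1, so that its loss in F2 exceeded that in M2 by 4.48 on the log2 scale (standard error 0.11, limma adjusted p = 4.01e-15). For *ZaAHK3* the signs were opposite, with M2 above M1 as given above and F2 at 5.85, 6.58 and 6.98 FPKM against 11.6, 11.1 and 13.6 FPKM in F1 (interaction 1.53, standard error 0.17, limma adjusted p = 3.56e-06). Zardc39101(*ZaAP1*) was at 13.0, 9.15 and 9.89 FPKM in F2 against 0.316, 0.395 and 0.292 FPKM in F1, also called higher there but by less (interaction 1.87, standard error 0.18, limma adjusted p = 4.15e-07). *ZaSIP1* was at 171 FPKM in each F2 library against 180.1, 192 and 176 FPKM in F1, so its fall in M2 was not called in F2 (interaction -1.18, standard error 0.06, limma adjusted p = 2.85e-10), though the interaction was -0.98, under the fold limit, after quantile normalization. *ZaARR12*, called higher in both sexes, was not called in the interaction (0.84, standard error 0.19).

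**Figure D5:**
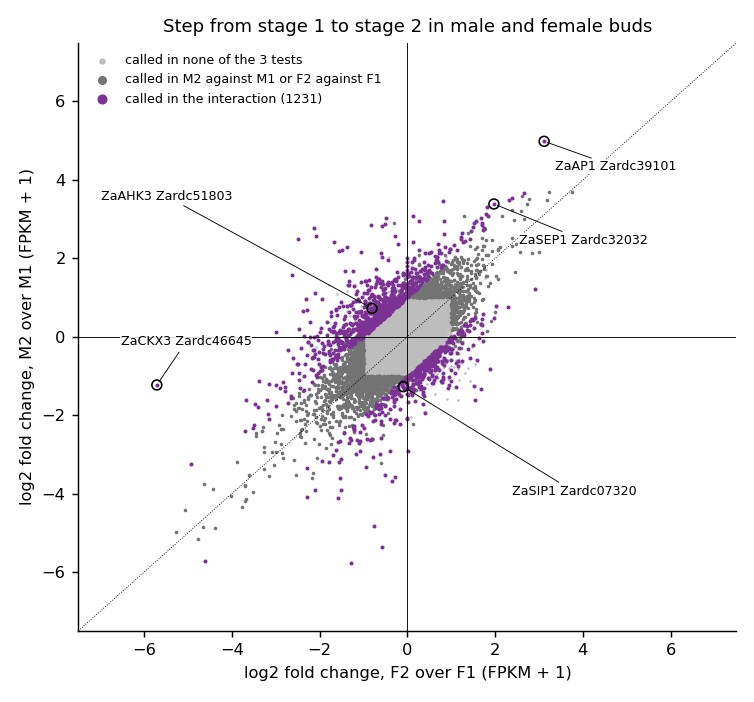
Each point is a gene tested, with the log2 fold change of F2 over F1 on the x axis and of M2 over M1 on the y axis. Purple points are the 1231 genes called in the interaction, dark grey points other genes called in either sex, light grey points the rest, and the dotted line marks equal changes. *ZaCKX3* lies far to the left at -5.71 in females and -1.23 in males.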

How the data were processed

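Buds were sequenced as total RNA libraries on an Illumina HiSeq platform. The authors mapped clean reads to the *Z. armatum* genome, counted them with HTSeq and deposited FPKM, one table per library, with 5257 of the 60592 IDs added to the published gene set. The submitters' processing notes list Bowtie 0.12.2, HTSeq and the build mm8, which is a mouse build. The treatment of reads matching several copies was not stated, and no coordinates were used.

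Values were analysed as log2(FPKM + 1) with limma 3.58.1 (trend, R 4.3.3) in one fit of the 8 groups and 23 libraries (15 residual degrees of freedom), over genes that reached 1 FPKM in 3 or more libraries. P-values were Benjamini-Hochberg adjusted within each contrast, and called means a log2 fold change of 1 or more in size with an adjusted p not above 0.05. The script was tested on simulated data. Named genes were the listed genes with a called M2*vs.*M1 change or interaction, or an adjusted p of at most 0.05 in M2*vs.*M1, and the 2 largest non-overlapping calls in each direction. The members and lists were chosen with earlier results of these data known. Alternatives were other pseudocounts, filter, scalings, thresholds, fits, a replicate block and leaving out each library. Pathway lists and *Arabidopsis* names came from the study's annotation. Primer sequences came from its supplement. The incomplete table of the third M2 library was not used.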

Additional observations from a re-analysis of the deposited data

Results flagged for a closer look

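For 16 listed genes the step to stage 2 differed between the sexes by the limma interaction (M2 - M1) - (F2 - F1), given here on the log2 scale, where a positive value means a higher change in males. Tested against the fold limit itself, 14 of the 16 lost the call, and *ZaCKX3* and Zardc39101(*ZaAP1*) kept it. With a pseudocount of 0.1 the value was over 1.5 times as large for 7 of them, namely 2.03 for *ZaCKX6*, 2.42 for *ZaSAUR53*, 2.37 for *ZaSPSB*, 3.35 for Zardc39101(*ZaAP1*), 4.38 for Zardc39213(*ZaAP1*), 2.19 for *ZaSEP1* and 2.67 for *ZaAGL29*. In the cytokinin pathway the interaction was 4.48 for Zardc46645(*ZaCKX3*), 1.12 for Zardc24534(*ZaCKX5*), 1.22 for *ZaCKX6* and 1.53 for Zardc51803(*ZaAHK3*). Of these, *ZaCKX5* was at 6.03, 6.48 and 5.93 FPKM in F2 against 31.0, 27.4 and 29.9 FPKM in F1, and *ZaCKX6* at 0.583, 1.09 and 1.04 FPKM in F2 against 1.08, 0.952 and 1.35 FPKM in F1.

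Among auxin and ABA genes it was 1.11 for Zardc04224(*ZaIAA3*), 1.52 for *ZaSAUR53*, 1.26 for Zardc35827(*ZaSAUR72*) and 1.11 for Zardc46850(*ZaAHG1*). *ZaIAA3* was at 12.2 and 10.6 FPKM in M2 against 11.7, 11.0 and 10.9 FPKM in M1, and at 4.96, 5.87 and 4.95 FPKM in F2 against 12.1, 11.6 and 13.1 FPKM in F1. *ZaSAUR53* was at 3.48 and 0.770 FPKM in M2 against 0.993, 0.798 and 2.04 FPKM in M1, so its M2 libraries disagreed, and without M2 replicate 1 the interaction was 0.85 (limma adjusted p = 0.214). It was also lost without M1 replicate 2 (limma adjusted p = 0.0541) or F1 replicate 1 (limma adjusted p = 0.0524).

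Among carbohydrate genes it was 1.38 for Zardc04055(*ZaSPSB*), a sucrose phosphate synthase, -1.18 for Zardc07320(*ZaSIP1*) and -1.13 for Zardc01552(*ZaGH9B1*). *ZaSPSB* was at 2.15 and 1.51 FPKM in M2 against 2.84, 2.63 and 2.76 FPKM in M1, and at 0.371, 0.453 and 0.443 FPKM in F2 against 3.49, 3.95 and 4.33 FPKM in F1. The interaction of *ZaSIP1* was -0.98 after quantile normalization. That of *ZaGH9B1* was -0.93 (limma adjusted p = 0.0528) without M2 replicate 2. *ZaGH9B1* averaged 4.60 FPKM in M2 against 15.5 FPKM in M1, and 6.49 FPKM in F2 against 9.12 FPKM in F1.

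Among MADS-box genes it was 1.87 for Zardc39101(*ZaAP1*), 1.99 for Zardc39213(*ZaAP1*), 1.41 for Zardc32032(*ZaSEP1*), 1.14 for Zardc28804(*ZaSEP2*) and 1.67 for Zardc26470(*ZaAGL29*). Zardc28804 was listed at 0 in every M1 and F1 library, so its interaction compares 7.06 and 5.39 FPKM in M2 with 2.51, 2.49 and 1.83 FPKM in F2, and it was 0.97 without M2 replicate 1. *ZaAGL29* was at 0.847, 0.245 and 0.682 FPKM in F2 against 4.97, 3.86 and 2.35 FPKM in F1.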

How the results depend on the processing

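A pseudocount of 0.1 gave 1344 genes higher and 1677 lower in M2*vs.*M1, 2824 called in F2*vs.*F1 and 1197 called the same way in both, with 60 called in opposite ways, against 43 with a pseudocount of 0.5. The test against the fold threshold itself gave 203 higher and 325 lower, 466 in F2*vs.*F1, 230 shared, 4 in opposite ways and 108 in the interaction. The other alternatives held the counts higher, lower, in F2*vs.*F1, shared and in the interaction within 1.5 times their reported values. Leaving out 1 M2 or M1 library gave 789 to 836 genes higher and 1111 to 1164 lower, leaving out 1 F2 or F1 library gave 1636 to 1767 in F2*vs.*F1, and leaving out any of these libraries gave 723 to 742 shared and 1121 to 1226 in the interaction. With a replicate block the counts were 783 higher, 1124 lower, 1627, 730 and 1217. Deviations from the group means of same-numbered M2 and M1 libraries correlated at 0.012 for replicate 1 and 0.005 for replicate 2. With only 2 M2 libraries their deviations mirror each other, so this cannot show whether the numbers pair libraries. Of the 21 listed calls, 7 were lost on leaving out 1 library and 12 in the test against the fold threshold, and of the 16 interaction calls 3 and 14. When only M2 and M1 were fitted, 9 named genes could not be tested, as only 2 M2 libraries count toward the filter, and 6 of these are called genes, both *ZaAP1* copies, *ZaSEP1*, Zardc28804(*ZaSEP2*), *ZaIAA29* and *ZaSBE2.2*. A pseudocount of 0.1 moved the fold of *ZaCKX6* to 1.71, *ZaIAA29* to 2.22, *ZaSBE2.2* to 2.05, *ZaPYL4* to -1.87 and Zardc39213(*ZaAP1*) to 2.43. Both smaller pseudocounts called *ZaARR11*, *ZaIAA12*, *ZaSUS2*, *ZaGH9B9* and *ZaCEL2*, at 1.17, 1.17, 1.43, 1.28 and -1.19 with 0.1, and 0.1 also called *ZaCKX5* lower. None of the 53 named genes that passed the adjusted p in M2*vs.*M1 changed direction there in the alternatives run. None of the 16 called interactions did so either. The M2*vs.*M1 direction of the other named genes was not followed, and the M2 libraries of *ZaSAUR53* disagreed. The 2 M2 libraries and the unknown read numbers of each gene limit what can be said of weak genes.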

Other observations

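A small group of genes was present in male and listed at 0 in female buds. At 1 FPKM or more in every M2 and M1 library and listed at 0 in every F2 and F1 library were 91 genes, with a median of 3.001 FPKM, and 0 genes showed the opposite pattern. Of the 91, 49 had added IDs, against 3772 of the 38734 genes tested. In M2*vs.*M1, 7 of the 91 were called higher and 0 lower (7.69%, against 4.92% of all genes tested). Over the 11 male and 12 female libraries of all stages 42 genes kept this pattern, and 0 the opposite one. They included *ZaBAM2* and a *ZaFYF* copy with an added ID, which was at 2.70 and 3.16 FPKM in M2 against 3.66, 3.78 and 3.97 FPKM in M1.

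Genes with consecutive ID numbers were sometimes called together. Of the 751 called higher with published IDs, 13.8% had a neighbouring number also called higher, against 3.03% of all published IDs tested, and of the 1038 called lower 11.5% had a neighbour called lower, against 4.06%. *ZaSEP1* stood in one such run of 3. Whether the ID numbers follow the order on the chromosomes is not stated in the sources used here.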
